A study of Mus musculus with 4 samples.

Results

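The genes described here encode the proteins of the cytosolic ribosome. They were chosen by name: a platform symbol of Rpl or Rps followed by a digit, or Rplp followed by a digit, without the Rps6k kinases, pseudogenes and genes named as -like. This gave 41 genes of 12393 named genes, 22 of the large and 19 of the small ribosomal subunit, each read by 1 probe set, the one with the highest mean over the 4 arrays. All of the arrays hold RNA of CD11b-positive bone marrow cells from C57BL/6 mice aged 8 weeks (at least 10 generations of backcrossing, specific pathogen free housing, no treatment). Every animal carried GFP knocked into Gfi1, the gene of a transcriptional repressor of blood cell development, and no array came from wild-type mice. The Gfi1-deficient monocytes are Gr1-low cells of the genotype GFP:Gfi1 KI/KI, with no GFP gate given. GFP-high and GFP-low monocytes are fractions of Gr1-low cells of the genotype GFP:Gfi1 KI/WT, and the granulocytes are Gr1-high cells of that same genotype. Each population was measured on 1 array, so the values have no replicate check and no test was made. How many animals were pooled for an array is not known from the labels.

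The cytosolic ribosome joins a small subunit, which decodes messenger RNA, to a large subunit, which links amino acids. Each ribosomal protein enters the particle in a fixed copy number, and the genes are known to be expressed in a coordinated way in growing cells. Their messenger RNAs are known for a tract of pyrimidines at the first transcribed bases, through which their translation responds to nutrient and growth factor signals. Granulocytes stop dividing as they mature in the bone marrow.

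Ribosomal protein genes read lowest in granulocytes. The median level of the 41 genes was log2 12.97 in Gfi1-deficient, 12.87 in GFP-low and 12.56 for GFP-high monocytes, and 11.28 on the granulocyte array. This last array stood apart from the other arrays, which lay close together. Of 40 genes above the floor on at least 1 array, 38 read lowest on the granulocyte array, against 36.7% of all 8621 genes above it. The full order, from Gfi1-deficient through GFP-low and GFP-high monocytes down to granulocytes, was held by 28 of the 40, against 12.1% of all genes. The floor is log2 5.18, the 40th percentile of all values, and a value below it was raised to it. A level is the deposited value of a probe set on a log2 scale, and a difference is the log2 value of the first population minus that of the second.

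**Figure D1:**
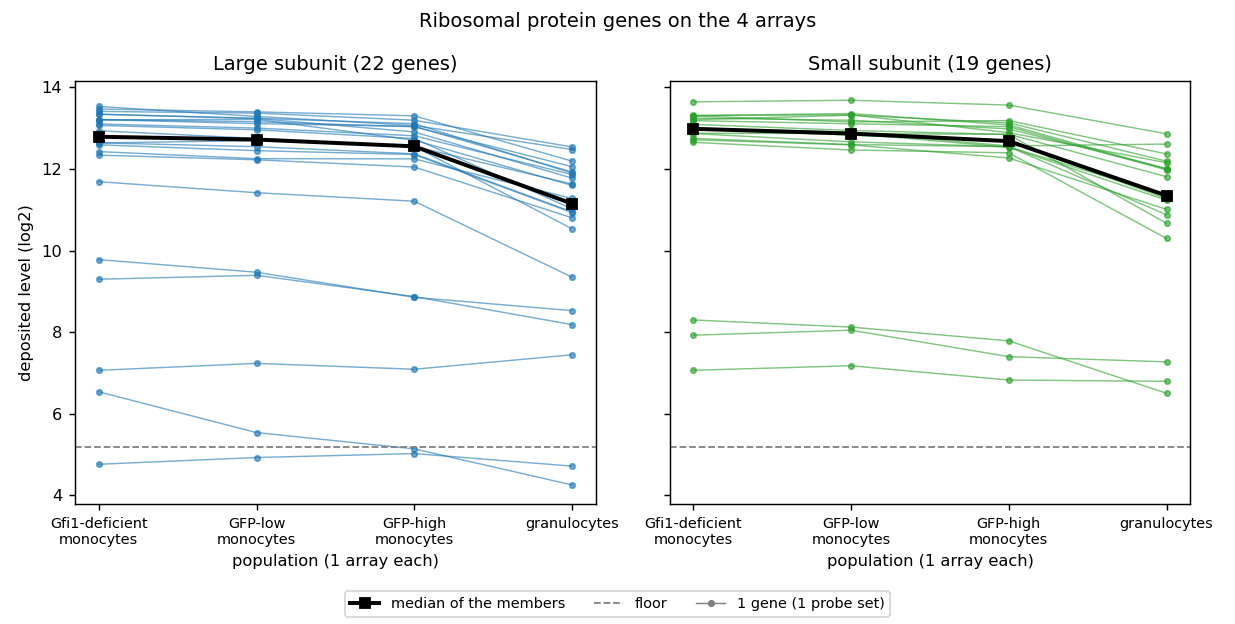
Deposited level (log2) of each ribosomal protein gene on the 4 arrays, with large subunit genes on the left and small subunit genes on the right. Thin lines are single genes, the thick line is their median and the dashed line is the floor at 5.18. Medians of large and small subunit genes are similar on each array and lowest in granulocytes, at 11.15 and 11.35.

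The bases around the start of 6 genes are shown because these genes mark the ends of the range in granulocytes. Rps18, Rpl10a and Rps19 had the largest differences from GFP-low monocytes by the probe set used. Rpl41, Rps10 and Rps9 had the smallest among genes with a mean level of at least log2 9 and a start window in the table used. The place of Rpl41 and Rps10 depended on the probe set, as given below. The windows are RefSeq sequences of the mouse build GRCm38.p6, 5′ to 3′ on the gene's strand, with 60 bases before the annotated start and the first 15 transcribed bases. Capitals mark a run of pyrimidines from the C nearest to the start that lies within 10 bases of it and is followed by at least 4 bases that are each C or T, and any match to CCGGAAG, a motif bound by ETS family factors. Pyrimidines just before that C, as in Rps18, Rps10 and Rpl10a, belong to the same stretch but are not in capitals. Where a gene had several starts, the window with the nearest run is shown.
Rps18, chr17:33955651-33955725, minus strand: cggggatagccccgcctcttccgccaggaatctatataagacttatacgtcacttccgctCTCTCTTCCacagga
Rpl10a, chr17:28328411-28328485, plus strand: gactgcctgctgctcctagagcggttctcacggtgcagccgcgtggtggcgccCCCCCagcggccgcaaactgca
Rps19, chr7:24884853-24884927, plus strand: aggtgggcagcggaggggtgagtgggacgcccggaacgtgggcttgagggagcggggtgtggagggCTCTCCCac
Rpl41, chr10:128549154-128549228, minus strand: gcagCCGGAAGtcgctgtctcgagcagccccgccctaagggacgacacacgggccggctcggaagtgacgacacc
Rps10, chr17:27635230-27635304, minus strand: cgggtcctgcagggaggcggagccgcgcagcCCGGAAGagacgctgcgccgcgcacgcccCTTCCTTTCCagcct
Rps9, chr7:3703981-3704055, plus strand: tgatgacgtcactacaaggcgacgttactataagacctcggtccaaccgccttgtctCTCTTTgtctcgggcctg

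Start windows of 300 bases (250 before and 50 after the start) were found for 36 of the 41 genes. A pyrimidine run near the start was present in 23 of these 36 genes, or 63.9% (exact 95% binomial interval 46.2% to 79.2%), against 34.4% of 27025 genes of the same table. The interval treats the genes as independent draws, which a family chosen by name is not, so it is no test against that share. A C at the annotated start itself, followed by at least 4 pyrimidines, was found for 8 of the 36 genes, or 22.2%, against 3.01% of all genes, whether or not pyrimidines also preceded it. CCGGAAG, searched on both strands, was present in the windows of 18 of the 36 genes and of 9.93% of all genes. Its reverse complement CTTCCGG itself holds a pyrimidine run, and leaving out such overlaps kept the count at 23. AAGATGG, part of the motif of the factor YY1, was present for 6 of 36 genes and 7.28% of all genes, and TATAAA, the TATA box, for 5 of 36 and 15.7%. AAATCAC, part of the motif bound by Gfi1, was present for 1 of 36 genes, Rpl22, and for 3.64% of all. These matches describe letters in a window and are not evidence of binding.

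Among 29 genes with a window and a mean level of at least log2 9, the median difference between granulocytes and GFP-low monocytes was -1.32 in the 17 with the pyrimidine run and -1.24 in the 12 without it. It was -1.26 in the 14 genes with CCGGAAG and -1.34 in the 15 without. The ranges overlapped on both splits, and neither sequence feature separated genes with large differences from genes with small ones. Both ends of the range, Rps18 and Rps9, hold a pyrimidine run near the start.

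The sorted populations were checked against their markers before the genes were compared. Monocyte markers such as Csf1r were above the floor for 5 of 5 genes on every array, with a log2 of the summed level of 14.37 for GFP-low, 14.20 for Gfi1-deficient and 10.08 for GFP-high monocytes, and 11.49 on the granulocyte array. The cells labelled GFP-high monocytes thus had the lowest summed monocyte markers of the 4 arrays. Of the 5 genes, 4 read lower in GFP-high monocytes than in granulocytes, Irf8 only slightly so at 7.09 and 7.23. Cd48 went the other way, at 7.78 and 7.10. Granulocyte markers, 7 of 7 above the floor on every array, summed to 16.78 in granulocytes, 16.62 in GFP-high, 15.50 for GFP-low and 13.94 for Gfi1-deficient monocytes. The sum for markers of early granulocytes and progenitors such as Mpo was 15.33 in GFP-high monocytes. It was 13.50 with Gfi1 deficiency, 10.97 for the GFP-low fraction and 10.69 on the granulocyte array. Of these 6 markers, 4 were above the floor for the GFP-low fraction and 5 on each of the other arrays. Cd34 did not follow the sum, as it read 5.31 with Gfi1 deficiency and was below the floor on every other array. Proliferation markers, 4 of 5 of which are on the array, summed to 13.65 for GFP-high, 12.53 for Gfi1-deficient and 12.37 for GFP-low monocytes and to 10.66 on the granulocyte array. Between Gfi1-deficient and GFP-low monocytes 3 of these 4 followed the sum, and Mki67 did not, at 10.99 and 11.22. Eosinophil markers summed to 12.49 in GFP-high and 10.79 in Gfi1-deficient monocytes and to at most 7.73 elsewhere. The NK cell marker was below the floor on every array. B cell markers summed to between 7.30 and 8.72, T cell markers to between 6.86 and 8.93 and erythroid markers to between 7.27 and 8.28, each highest in granulocytes. Plasma cell markers, led by Igha, summed to 10.88 in GFP-low monocytes and to between 8.13 and 8.89 elsewhere. The parts of other cell types and of proliferation in the differences given next were not tested. In sorted populations measured in bulk, fewer cells of a type and less RNA per cell cannot be told apart. Each array received cRNA made from 6 µg of total RNA, so a level is relative to the total and not per cell. The gap between the 3′ and 5′ control probe sets of Actb, a sign of RNA integrity, was 0.28 log2 units in Gfi1-deficient, 0.16 in both other monocyte fractions and 0.08 in granulocytes, and its part in the differences was not tested. The same gap for Gapdh did not follow that order, at -0.10 in Gfi1-deficient monocytes and -0.06 on each other array.

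Granulocytes and GFP-low monocytes, both from heterozygous mice, were compared first. They had the highest summed granulocyte markers and the highest summed monocyte markers of the arrays, respectively. Ribosomal protein genes were lower in granulocytes, with a median difference of -1.20, or 2.29-fold, over 40 genes. The median over all 8503 genes tested was 0.000. At least 1.5-fold lower were 36 of the 40 genes, against 28.7% of all genes, and at least 2-fold lower were 29, against 18.2%. None of the 40 was at least 1.5-fold higher, against 19.3% of all genes, or 2-fold higher, against 10.0%. Below 0 were 39 of the 40, against 4248 of all 8503 genes. Large subunit genes had a median of -1.21 and small subunit genes one of -1.18, and the subunits did not separate. The scatter between probe sets of the same gene, the only error the data allow, had an SD of 0.39 over 3131 genes and 0.41 over 18 ribosomal protein genes. It holds no spread between animals. The median gene above the floor on all arrays read 7.77 in granulocytes and 8.00 in GFP-low monocytes. With the arrays centred on it the ribosomal median was -0.97 and 18 genes were at least 2-fold lower. The share of all genes was not recomputed with this centring.

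**Figure D2:**
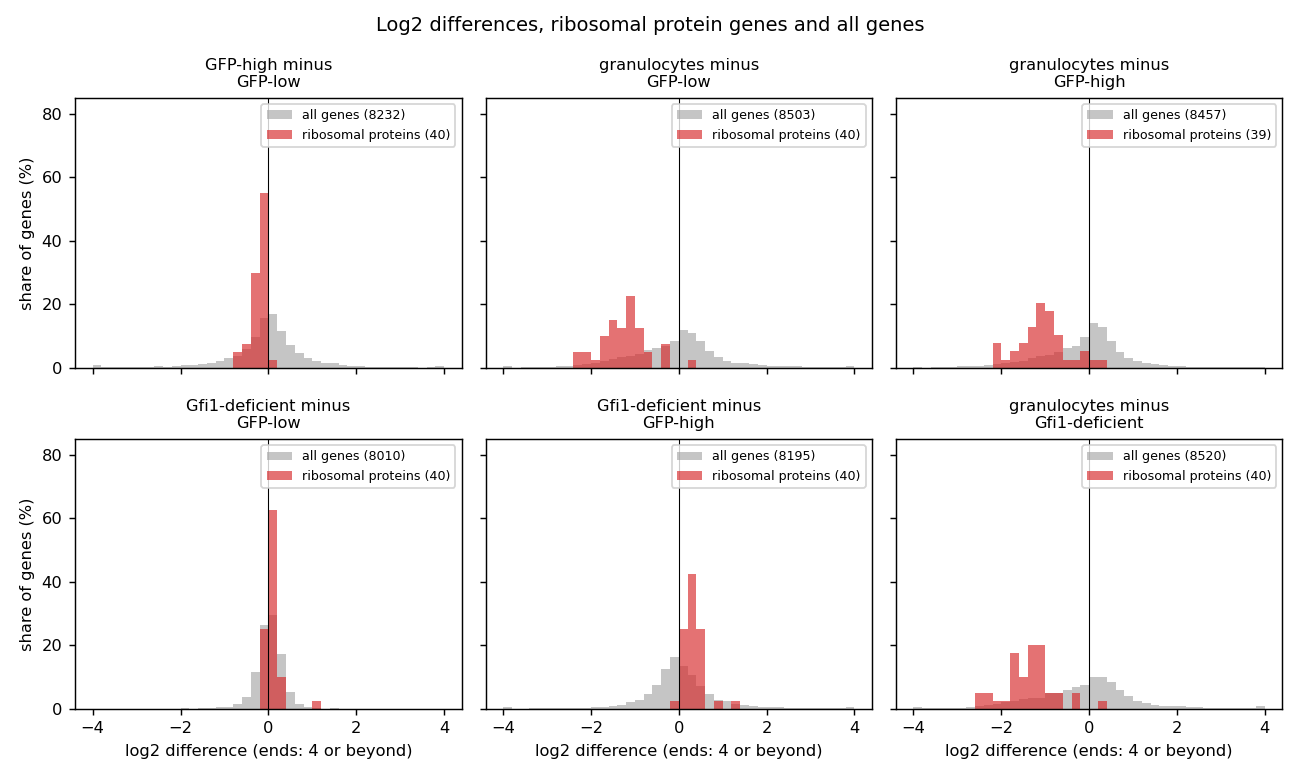
Share of genes (%) by log2 difference in steps of 0.2, for ribosomal protein genes (red) and all genes (grey), in the 6 pairs of arrays. Values of 4 or beyond are drawn at the ends. The red bars lie mostly below -0.5 in the 3 pairs with granulocytes and close to 0 in the other 3 pairs.

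The largest difference belonged to Rps18, a protein of the head of the small subunit. It read log2 13.09 in Gfi1-deficient, 12.94 in GFP-low and 12.84 for GFP-high monocytes against 10.67 in granulocytes, which was 4.85-fold below GFP-low monocytes. The granulocyte value was the only low one of the 4. Its other bright probe sets gave -2.26 and -2.22. Rpl10a, a protein of the L1 stalk of the large subunit, read 12.94, 12.75, 12.56 and 10.53 in the same order of arrays and was 4.65-fold lower in granulocytes. Rps19, which is mutated in Diamond-Blackfan anaemia, a failure of red cell production, read 12.65, 12.47, 12.40 and 10.30, a 4.50-fold difference. Rpl22, a large subunit protein that cells can lose without losing ribosome function, read 11.69, 11.42, 11.21 and 9.35, a 4.20-fold difference. In each of these 4 genes the granulocyte value lay far below 3 monocyte values that were close together. Rpl35, of the large subunit, was 3.83-fold lower, and its 5 probe sets above the floor lay between -2.25 and -1.92.

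Rps9, a small subunit protein near the entry of the messenger RNA channel, did not follow the others. It read 12.99 in Gfi1-deficient, 12.90 in GFP-low and 12.56 for GFP-high monocytes and 12.61 in granulocytes. The granulocyte value lay between those of GFP-low and GFP-high monocytes, so granulocytes were not the lowest array for this gene. The difference from GFP-low monocytes was -0.29, a 1.23-fold difference within the probe set scatter. A further bright probe set of Rps9 gave -0.39, and a dim one near the floor gave 0.07. The probe set used carries the suffix _s_at, which the platform gives where probes match several transcripts.

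Other bright genes with small differences in granulocytes were Rps10 (-0.79), Rpl41 (-0.81), Rps29 (-0.82) and Rpl37a (-0.83). Another bright probe set of Rpl41 gave -1.21, near the family median. The other bright probe sets of Rps10 lay between -1.40 and -0.68, so the place of both genes depended on the probe set. Rps29 read log2 13.65 in Gfi1-deficient, 13.69 in GFP-low, 13.57 in GFP-high monocytes, with 12.86 in granulocytes. Its value was the highest of all members on each array. The other bright probe sets of Rps29 gave -0.68 and -0.33, so its place depended on the probe set too. The highest reading of any probe set was 14.16 in GFP-low monocytes and 14.45 in granulocytes. Leaving out the 5 genes with a mean above log2 13 moved the median from -1.20 to -1.32.

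The stalk of the large subunit, which recruits translation factors, has its base protein Rplp0 and the P-protein Rplp2 among the members. Rplp0 read 13.35 in Gfi1-deficient, 13.24 in GFP-low and 12.91 for GFP-high monocytes and 11.78 in granulocytes, 2.75-fold below GFP-low monocytes. Rplp2 read 13.47, 13.40, 13.30 and 12.19 in that order, a 2.31-fold difference. Rpl12, at the base of the stalk, was below the floor on all of the arrays with its only probe set of 1 gene, so no difference is given. Rpl11, which joins the 5S ribosomal RNA in a particle that also binds the p53 regulator Mdm2, read 12.34, 12.23, 12.05 and 10.80 and was 2.68-fold lower in granulocytes. All 3 measured genes were lowest in granulocytes, by amounts near the median of the family or above it.

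**Figure D3:**
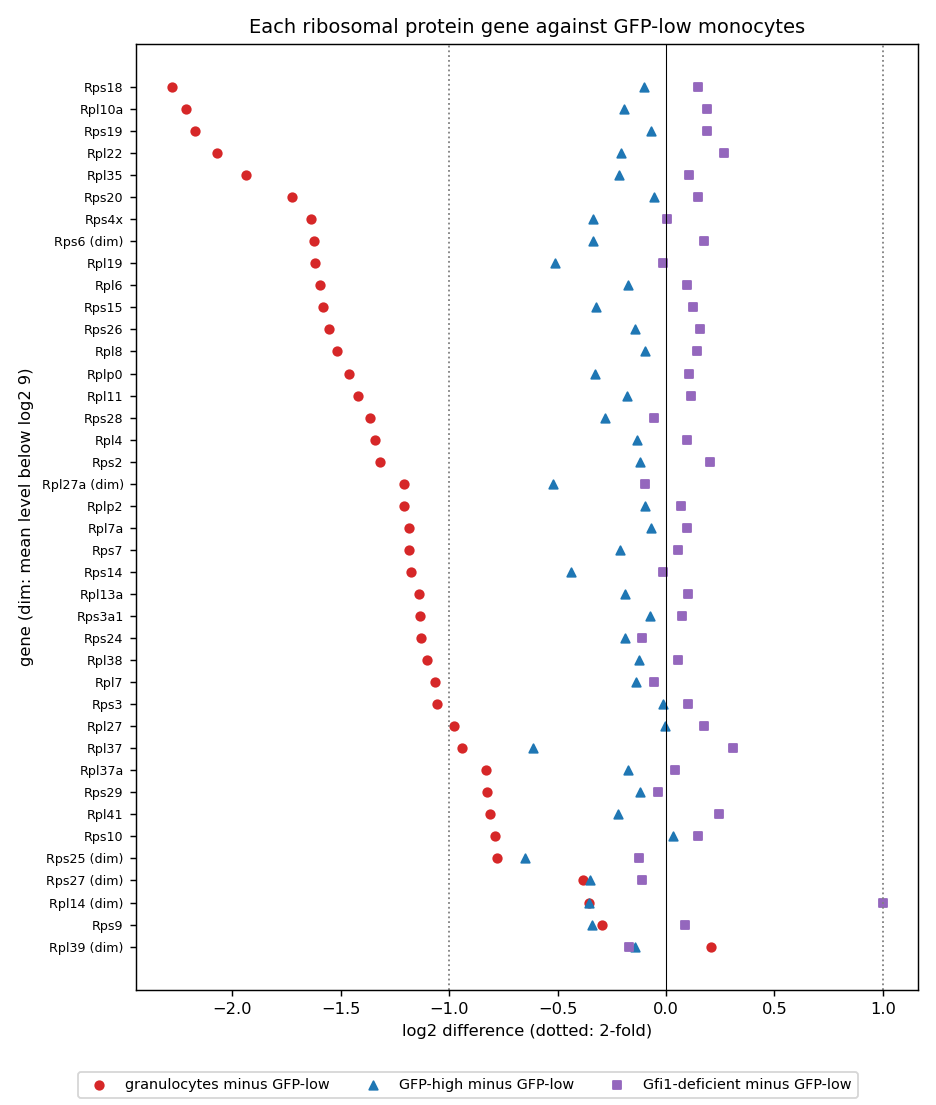
Log2 difference from GFP-low monocytes of each of 40 ribosomal protein genes, for granulocytes (circles), GFP-high monocytes (triangles) and Gfi1-deficient monocytes (squares), ordered by the granulocyte difference. Dotted lines mark 2-fold, and Rpl14 is drawn from values that partly lie at the floor. Granulocyte points spread from -2.28 for Rps18 to 0.21 for Rpl39, while most other points lie within 0.5 of 0.

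A total of 7 members had dim probe sets, with a mean below log2 9, namely Rpl12, Rpl14, Rpl27a, Rpl39, Rps25, Rps27 and Rps6. For 5 of these, a brighter probe set exists that the platform assigns to several genes and that was therefore not used for a gene. Rpl39, a large subunit protein of the exit tunnel, read 7.06 in Gfi1-deficient, 7.23 in GFP-low, 7.09 in GFP-high monocytes, with 7.44 in granulocytes, and was the only member highest in granulocytes. Rps27, of the small subunit, read 7.06, 7.17, 6.82 and 6.79, a difference of -0.38 in granulocytes. Rps25, a small subunit protein needed by some viral entry sites for translation, read 7.92, 8.05, 7.40 and 7.27, a difference of -0.78. Rps6, the small subunit protein phosphorylated by the S6 kinases, read 8.30, 8.12, 7.78 and 6.50, a difference of -1.62. The 6 dim genes above the floor ranged from -1.62 to 0.21 with a median of -0.58. The 34 brighter genes ranged from -2.28 to -0.29 with a median of -1.26, so dim and bright genes overlapped.

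Granulocytes were next set against GFP-high monocytes, the Gr1-low cells whose granulocyte markers came closest to theirs. The ribosomal median was -1.08, or 2.12-fold lower in granulocytes, over 39 genes, and 0.033 over all 8457 genes. At least 1.5-fold lower were 34 genes, against 25.6% of all, and at least 2-fold lower were 22, against 16.4%. A probe set without the suffixes _x_at, _s_at and _a_at, which mark probes that match several transcripts, exists for 19 members. It was above the floor in this pair for 14 of them, with a median of -0.49. No member was at least 1.5-fold higher, against 17.3% of all genes, or 2-fold higher, against 8.93%. Below 0 were 37 members, against 47.9% of all genes, and above 0 were 2, against 52.1%. With arrays centred on the median gene 12 members were at least 2-fold lower, with no share of all genes computed for that setting. Rps18 was 4.53-fold, Rps19 4.29-fold, Rpl10a 4.06-fold and Rpl22 3.64-fold lower. At the other end Rpl39 had a difference of 0.36, Rps9 one of 0.05, Rps27 one of -0.03 and Rps25 one of -0.13. Proliferation markers had a median of -3.15 in this pair, with 4 of 4 genes at least 2-fold lower in granulocytes. The same 4 were at least 2-fold lower than in GFP-low (median -1.78) and Gfi1-deficient monocytes (median -2.05). Their part in the ribosomal differences was not tested.

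Against Gfi1-deficient monocytes the granulocyte values were lower by a median of 1.28 log2 units (-1.28), or 2.43-fold, over 40 genes, with -0.009 over all 8520 genes. This was the widest median difference among the 6 pairs. At least 1.5-fold lower were 37 genes, against 30.6% of all genes, and at least 2-fold lower were 33, against 20.3%. None was at least 1.5-fold higher, against 21.8%, or 2-fold higher, against 11.2%. Below 0 were 39 members, against 50.2%, and above 0 was 1, against 49.7%. With arrays centred on the median gene 21 were at least 2-fold lower, again with no share of all genes for that setting. Rps18 was 5.39-fold, Rpl10a 5.30-fold, Rps19 5.13-fold and Rpl22 5.06-fold lower in granulocytes. Members with the smallest differences were Rps27 (-0.27), Rps9 (-0.38) and Rps25 (-0.65), and Rpl39 was higher by 0.38. Genotype and the Gr1 gate differ together in this pair and cannot be told apart. The 3 comparisons with granulocytes share the granulocyte array and are not independent of each other.

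GFP-high and GFP-low monocytes, of the same genotype and Gr1 gate, differed little in ribosomal protein genes. The median difference was -0.18, or 1.14-fold lower in GFP-high monocytes, and 0.026 over all 8232 genes. The difference had the same sign for nearly all members, with 39 of 40 below 0, against 47.5% of all genes, and 1 above 0, against 52.3%. Only 2 members were at least 1.5-fold lower, against 16.7% of all genes, and 0 were at least 2-fold lower, against 9.61%. None was at least 1.5-fold higher, against 17.1%, or 2-fold higher, against 9.03%. These counts use 1 probe set per gene, and a dimmer probe set of Rpl22 gave -1.06. Of 17 members with several probe sets above the floor, 12 had the same sign over all of them. The probe set scatter had an SD of 0.32 over all genes and 0.17 over 17 members, and the difference exceeded the former in 11 of 40 members and the latter in 23. Rps25 (-0.65) and Rpl37 (-0.62), of the large subunit, passed 1.5-fold, followed by Rpl27a (-0.52) and Rpl19 (-0.51). Rpl19 read log2 13.20 in Gfi1-deficient, 13.22 in GFP-low, 12.71 in GFP-high monocytes, with 11.60 in granulocytes, with GFP-high between the other monocytes and granulocytes. Rps10 (0.03), Rpl27 (-0.004), Rps3 (-0.013) and Rps20 (-0.053) were level by the probe set used. The other bright probe sets of Rpl27 gave -0.27 and -0.42, so its place depended on the probe set. Ribosomal protein genes and proliferation markers had medians of opposite sign in this pair, since that of the markers was 1.31, with all 4 past 1.5-fold on the higher side. Their part in the ribosomal difference was not tested. The proliferation antigen gene Mki67 read 12.20 in GFP-high and 11.22 in GFP-low monocytes, and Mcm5, a subunit of the replication helicase, read 10.26 and 8.79.

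Gfi1-deficient and GFP-low monocytes had nearly the same ribosomal protein levels. The median difference was 0.10, or 1.07-fold higher in Gfi1-deficient monocytes, against 0.032 over all 8010 genes, and 30 of 40 members were above 0, against 54.8% of all genes, and 10 below 0, against 44.9%. At least 1.5-fold higher was 1 member, against 2.86% of all genes, and the same member passed 2-fold, against 0.637%. None was at least 1.5-fold lower, against 3.57%, or 2-fold lower, against 1.27%. The member past 2-fold was Rpl14, which read 6.53 in Gfi1-deficient against 5.53 in GFP-low monocytes and was below the floor in GFP-high monocytes and granulocytes. Its 2.001-fold difference comes from a dim probe set. Next came Rpl37 (0.31), Rpl22 (0.27) and Rpl41 (0.24), and at the lower end Rpl39 (-0.17), Rps25 (-0.12), Rps24 (-0.11) and Rps27 (-0.11). This ranking depended on the probe set. A dimmer probe set of Rpl22 gave 0.04, and the others of Rpl41 gave 0.31, -0.20 and -0.54. An unused probe set of Rpl13a gave 0.59, past 1.5-fold. The probe set scatter had an SD of 0.17 over all genes and 0.060 over 17 members. The difference exceeded the former in 7 of 40 members and the latter in 31. Genotype and the GFP gate differ together in this pair and cannot be told apart.

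Gfi1-deficient against GFP-high monocytes gave a median of 0.27, or 1.20-fold higher in Gfi1-deficient monocytes, against -0.017 over all 8195 genes. Above 0 were 39 of 40 members, against 48.4% of all genes, and below 0 was 1, against 51.6%. At least 1.5-fold higher were 2 members, Rpl14 (by at least 2.56-fold) and Rpl37 (1.90-fold), against 17.3% of all genes, and 1 of them, Rpl14, was at least 2-fold higher, against 9.53%. None was at least 1.5-fold lower, against 15.6%, or 2-fold lower, against 7.81%. Rps25 (0.53) and Rps6 (0.51) followed, and Rpl39 (-0.03), Rps24, Rps29 and Rpl7 (each 0.08) had the smallest differences. Scatter between probe sets had an SD of 0.32 over all genes and 0.13 over 17 members. The difference exceeded the former in 16 of 40 members and the latter in 34. Proliferation markers were lower in Gfi1-deficient monocytes here, with a median of -1.12. As in the pair with GFP-low monocytes, genotype and the GFP gate differ together and cannot be told apart.

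The X chromosome carries 2 members, Rpl39 and Rps4x. Rps4x, a small subunit protein, read 12.88 in Gfi1-deficient, 12.87 in GFP-low, 12.53 in GFP-high monocytes, with 11.23 in granulocytes, 3.11-fold lower in granulocytes than in GFP-low monocytes. Its Gfi1-deficient and GFP-low values were level. Without both genes, the median over 38 autosomal members was -1.20 for granulocytes minus GFP-low and 0.10 for Gfi1-deficient minus GFP-low monocytes.

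Ribosomal protein genes left out by the name rule gave a mixed picture. Rpsa, a small subunit protein also known as laminin receptor, read 13.24 in Gfi1-deficient, 13.05 in GFP-low, 12.90 in GFP-high monocytes, with 10.75 in granulocytes. Fau, which encodes a small subunit protein fused to a ubiquitin-like one, read 12.96, 12.93, 12.59 and 12.65. Rpsa thus lay at the far end of the family with Rps18, and Fau at the near end with Rps9. Of 102 probe sets assigned to several genes that include a ribosomal protein gene, 95 pair 1 such gene with pseudogenes or predicted genes. In all, 27 further ribosomal protein genes have only probe sets of several genes. The 95 probe sets gave 1 for each of 38 parent genes, 13 of which are also members. For granulocytes minus GFP-low monocytes 36 parent genes were above the floor. Their median was -1.21, with 33 at least 1.5-fold lower, against 28.7% of all genes, and 0 higher, against 19.3%. For GFP-high minus GFP-low monocytes it was -0.18, and for Gfi1-deficient minus GFP-low monocytes 0.10.

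Genes that make ribosomes or work with them were counted from lists. Nucleolar factors of ribosome biogenesis, 63 of 69 of them on the array, had a median of -1.23 for granulocytes minus GFP-low monocytes, with 43 at least 1.5-fold lower, against 28.7% of all genes, and 1 higher, against 19.3%. In granulocytes minus GFP-high monocytes Rrs1, a factor of large subunit assembly, was at least 8.13-fold lower, its granulocyte value lying below the floor, and Fbl, the methyltransferase of ribosomal RNA, 4.32-fold lower, while Rrp9 (0.13) and the kinase gene Riok2 (0.28) were level. In GFP-high minus GFP-low monocytes the list median was -0.04, with Tcof1 (-1.08) and Fbl (-0.94) at the lower end and Riok1 (1.01) and Wdr12 (1.24) at the upper end. Fbl read 10.35 in Gfi1-deficient, 10.33 in GFP-low and 9.39 for GFP-high monocytes against 7.28 for granulocytes, so that GFP-high monocytes were intermediate for this gene.

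Translation factors had medians below 0 in granulocytes as well. Of 12 elongation and associated factors, 8 were at least 1.5-fold lower than in GFP-low monocytes, against 28.7% of all genes, and 1 higher, against 19.3%, with a median of -1.35. Eef2, which moves the ribosome along the messenger RNA, read 12.38 in Gfi1-deficient, 12.19 in GFP-low, 11.13 in GFP-high monocytes, with 10.64 in granulocytes. Eef2k, the kinase that inhibits it, was the higher gene and read 5.53, 5.20, 6.34 and 6.63. The gene and its inhibitor were ordered in opposite ways over GFP-low, GFP-high and granulocyte arrays. Eef1e1 was 4.69-fold and the termination factor Gspt1 3.72-fold lower in granulocytes than in GFP-high monocytes, and Tpt1 (-0.14) and Eef2k (0.28) were level. In GFP-high minus GFP-low monocytes the ends were Eef2 (-1.06), Eef1d (-0.59), Eif5a (0.47) and Eef2k (1.14). Of 36 initiation factors and partners, 26 were at least 1.5-fold lower in granulocytes than in GFP-low monocytes and 1 higher, set against those same shares, with a median of -0.999. Eif3b and Eif3i, subunits of initiation factor 3, were 4.50-fold and 3.80-fold lower in granulocytes than in GFP-high monocytes, while Eif4ebp1, an inhibitor of cap-dependent initiation, was 2.38-fold higher and Eif4e3 1.77-fold higher. Eif4ebp1 (-0.78) and Eif1a (-0.75) were lowest and Eif4e (0.48) and Eif1ax (0.79) highest in GFP-high minus GFP-low monocytes.

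**Figure D4:**
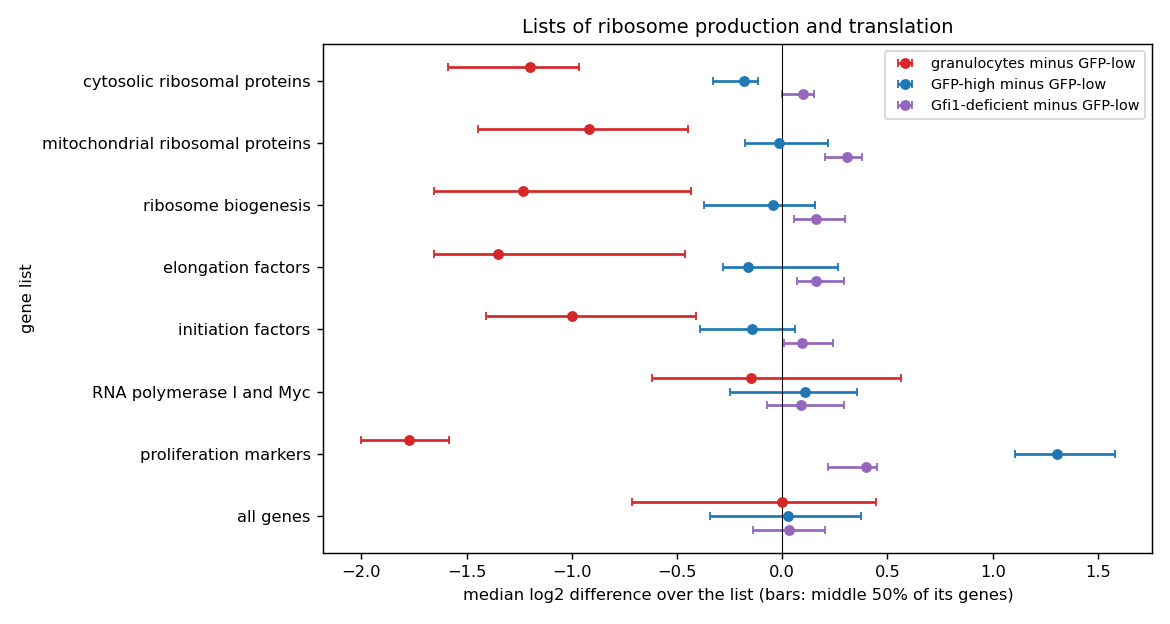
Median log2 difference from GFP-low monocytes over the genes of 8 lists, with bars that span the middle 50% of the genes of each list, for granulocytes (red), GFP-high monocytes (blue) and Gfi1-deficient monocytes (purple). The cytosolic ribosomal proteins, mitochondrial ribosomal proteins, biogenesis factors and translation factors have red medians between -1.35 and -0.92, and the proliferation markers alone have a blue median above 1.

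Mitochondrial ribosomal proteins, which form a separate ribosome, had a median of -0.92 for granulocytes minus GFP-low monocytes, with 50 of 74 at least 1.5-fold lower, against 28.7% of all genes, and 0 higher, against 19.3%. The median was -0.01 for GFP-high and 0.31 for Gfi1-deficient minus GFP-low monocytes. Mrpl42 was 7.16-fold and Mrpl35 5.81-fold lower in granulocytes than in GFP-high monocytes, whereas Mrpl38 (0.38) and Mrpl33 (0.92) were at the other end. In GFP-high minus GFP-low monocytes the ends were Mrpl52 (-1.96), Mrpl4 (-1.32), Mrpl44 (1.03) and Mrpl51 (1.09).

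Genes of RNA polymerase I and the Myc network, which govern ribosomal RNA synthesis and growth, were counted last. In granulocytes minus GFP-low monocytes 5 of 20 were at least 1.5-fold higher, against 19.3% of all genes, and 5 lower, against 28.7%, with a median of -0.15. Both shares lay near those of all genes. Mxd1, an antagonist of Myc, read 5.86 in Gfi1-deficient, 5.61 in GFP-low, 7.85 in GFP-high monocytes, with 10.56 in granulocytes. Myc itself, a growth-promoting factor, read 6.11, 5.71, 7.04 and 4.91, the last below the floor, so that it was highest in GFP-high monocytes. Granulocytes were at least 3.63-fold lower in Myc and 6.51-fold higher in Mxd1 than GFP-high monocytes. In that pair Rrn3, an initiation factor of RNA polymerase I, was lower by at least 2.80-fold and Polr1a, its largest subunit, was 4.50-fold higher. In GFP-high minus GFP-low monocytes Mxd1 (2.25) and the related Mxi1 (1.55) were highest, and Mnt (-1.03) and Polr1c (-0.57) lowest.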

How the data were processed

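The deposited values, 1 for each of 22690 probe sets on each of 4 Affymetrix arrays, were used as log2 values. The scale was inferred from their range, and how the authors summarised, corrected and normalized them is not given in the sources used here. RNA was extracted with TRIzol and made into biotin-labelled cRNA, per the labels' protocols. Apart from 64 control probe sets, 20380 had 1 gene, 691 several and 1555 none in the platform table. Differences were computed with Python 3.11.15, numpy 2.4.6 and pandas 2.3.3 after the floor, and the code was tested on simulated data. Where 1 of a pair of values lay at the floor, the difference is a bound. Genes were counted at 1.5-fold and 2-fold. Named members are the 4 highest and 4 lowest of each comparison, those at least 2-fold apart, and those of the stalk, the 5S particle and the X chromosome, and for the other lists the 2 genes at each end of 2 comparisons. The members and lists were chosen with earlier results of these data known. A normalization that forces a common distribution on the arrays would hide a shift of most genes, and the number of arrays limits the precision. Alternatives changed the probe set of a gene, the scaling, the floor and the members kept.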

Additional observations from a re-analysis of the deposited data

How the results depend on the processing

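The 6 medians kept their direction under all 7 planned and 3 added alternatives, and 59 of 60 recomputed medians moved by less than the probe set scatter. That scatter is of single genes and exceeds the medians themselves in the pairs without granulocytes, so it is a wide limit there. Recomputed medians in those pairs ran from -0.32 to -0.14 for GFP-high minus GFP-low monocytes. They ran from 0.08 to 0.11 for Gfi1-deficient minus GFP-low and from 0.23 to 0.43 for Gfi1-deficient minus GFP-high monocytes. The alternatives without dim members, without _x_at and _s_at probe sets and with shared probe sets were chosen after seeing the data. With probe sets that lack the suffixes _x_at, _s_at and _a_at 14 members were above the floor in the pairs with granulocytes, so their counts are out of 14. The median for granulocytes minus GFP-high monocytes was then -0.49, and 8, 7 and 9 members were at least 1.5-fold lower in granulocytes than in GFP-low, GFP-high and Gfi1-deficient monocytes, 6, 5 and 8 of them at least 2-fold. Rps18 then read near the floor and changed sign, to 0.17 against each monocyte array, and Rpl41 to 0.27, 0.26 and 0.47 against GFP-low, GFP-high and Gfi1-deficient monocytes. With arrays centred on the median gene 18, 12 and 21 members were at least 2-fold lower in granulocytes in those pairs, and 1 member was at least 1.5-fold higher than in GFP-high and than in Gfi1-deficient monocytes, the latter also 1 with quantile normalization. Members at least 1.5-fold lower in GFP-high than in GFP-low monocytes numbered 1 with probe sets lacking the 3 suffixes, without dim members and without _x_at and _s_at, and 0 with shared probe sets. For Gfi1-deficient minus GFP-low monocytes, 0 were at least 1.5-fold or 2-fold higher with the floor at the 60th percentile, without dim members and with shared probe sets, and 0 at least 2-fold with either other scaling. For Gfi1-deficient minus GFP-high monocytes, 1 was at least 1.5-fold higher with probe sets lacking the 3 suffixes, with the higher floor, without dim members and without _x_at and _s_at, and 0 with shared probe sets, and 0 were at least 2-fold higher with the higher floor, without dim members and with shared probe sets. A C with 4 following pyrimidines at the exact start was found for 22.2% of members. The causes of these changes were not tested. Shares of all genes were not recomputed under the alternatives, so the member counts given here have none beside them. No paired analysis was possible because each group has 1 array. Without replicates, leaving out an array gives no value.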

Other observations

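Ribosomal protein genes named as -like, close relatives of family members, were read by 6 genes on the arrays, 4 of them above the floor. Rpl22l1, the paralog of Rpl22, read log2 11.07 in Gfi1-deficient, 10.73 in GFP-low, 10.89 in GFP-high monocytes against 8.82 for granulocytes. Rps27l, the paralog of Rps27, read 11.17, 10.94, 10.87 and 9.24 in that order. Both were lowest in granulocytes, by 2.07 and 1.62 log2 units below GFP-high monocytes (-2.07 and -1.62). Rps4l read 6.74, 6.69, 7.59 and 6.50 and was highest in GFP-high monocytes, 1.87-fold above GFP-low monocytes. Rpl7l1 read 8.87, 8.604, 8.89 and 8.15, 1.67-fold lower in granulocytes than in GFP-high monocytes. Rpl39l and Rpl3l were below the floor on all of the arrays.

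Genes of the Rps6k name family, which holds the S6 kinases and related kinases, were represented by 4 genes, 3 of them above the floor. For granulocytes minus GFP-high monocytes Rps6ka3 had a difference of -0.08, Rps6kb2 one of 0.10 and Rps6kc1 one of 0.44. In GFP-high minus GFP-low monocytes they had differences of -0.55, 0.25 and 0.22.

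Across the 34 members with a mean of at least log2 9, which share the same arrays and are not independent, the level in GFP-low monocytes and the difference of granulocytes from them had a Pearson's r of 0.14. Over all 40 members above the floor, dim ones included, r for that pair was -0.43. The same r over the 34 members was -0.64 where GFP-low was subtracted from Gfi1-deficient monocytes, and -0.75 where GFP-high was. It was 0.34 with GFP-low subtracted from GFP-high monocytes. With granulocytes as the first population it was -0.03 against GFP-high and 0.22 against Gfi1-deficient monocytes. The level correlated is the one subtracted in the difference, so error in it alone pushes r to negative values. No conclusion is drawn from these r values. The position of the members among all readings of an array does not depend on scaling that keeps their order. Their median percentile was 99.6 in Gfi1-deficient, 99.5 in GFP-low and 99.3 in GFP-high monocytes, and 97.0 on the granulocyte array.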
